A study of Glycine max with 30 samples.

Results

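The chromatin of soybean leaves at ZT0 was compared with that at ZT12, a pair of sampling times 12 h apart in a time course of ATAC-seq, a method that sequences the fragments a transposase releases from open DNA. The members were the 3 libraries labelled ZT0 and the 3 labelled ZT12, out of 18 libraries of the time course and 30 samples in the labels. The regions were those listed in the merged list of ZT0 or of ZT12, joined where they overlapped or touched. This gave 24193 regions of the 35922 that the merged lists of all 6 time points form. All groups were wild-type Glycine max of the cultivar Ws82 (Williams 82), raised under short days and kept in constant light from the day before sampling, and the tissue was the first tri-foliate leaf. The time points had no difference in genotype or agent, only in sampling time under free-running conditions, and the names used here are those of the labels, which the study numbers a cycle later. Replicates L, M and R were described as independent biological replicates, and the design text gives 3 plants of like growth for an experiment. Leaf identity could not be checked against marker genes, because peak lists name no gene.

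In plants the circadian clock is a set of transcription factors that repress each other in turn. LHY and CCA1, MYB-like factors, are known to act around dawn, and TOC1 and the evening complex, which contains LUX, around dusk. An accessible chromatin region (ACR) is a stretch where nucleosomes leave the DNA open to such factors, usually at promoters and enhancers. Under constant light there was no light change between samplings. ZT0 is subjective dawn, and ZT12 lies in the subjective night, because the lights of the earlier short days went off before it.

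A small set of regions had a peak in every library of one time point and in no library of the other, and at the 4 remaining time points the ratio of ZT0-side to ZT12-side calls was higher at ZT4 and ZT20, next to ZT0, than at ZT8 and ZT16, next to ZT12. Among the 3652 regions open in all 6 libraries, 2 differed in within-library rank at an adjusted p under 0.05, 1 in each direction, and no region passed in either direction under any alternative setting. In a fit of peak width added after seeing the data, the 2 regions that passed the adjusted threshold had peaks of 1272 to 1427 bp at ZT0 and of 415 to 578 bp at ZT12. Most common regions did not share this direction: the median region was 0.11 log2 units wider at ZT12. At an unadjusted p under 0.05 by limma, 330 regions were wider at ZT12 and 64 at ZT0.

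The ZT12 libraries had longer peak lists, but not beyond the spread between replicates. ZT0 replicates L, M and R held 7668, 13268 and 9563 peaks, and ZT12 replicates L, M and R held 10813, 21804 and 16198. The lists thus overlapped in length, with ZT12 replicate L below ZT0 replicate M. The mean was 10166 ± 2848 (SD, n = 3) at ZT0 and 16272 ± 5496 (SD, n = 3) at ZT12, a ratio of 1.60 (two-sided exact permutation test, p = 0.2). With 3 libraries against 3, the smallest p this test can give is 0.1. Covered length followed the same order, 3.10 ± 0.790 Mb (SD, n = 3) against 5.08 ± 1.68 Mb (SD, n = 3), with an exact permutation p of 0.2. The background coverage recovered from the lists was 0.513, 0.398 and 0.542 fragments per base in ZT0 replicates L, M and R and 0.595, 0.495 and 0.784 in ZT12 replicates L, M and R. It was higher on average at ZT12, with overlapping groups (exact permutation p = 0.3). The weakest peaks rested on 4 or 5 fragments at the summit and the median peak on 9 or 10 in each library. Over 9 such library measures the adjusted p ran from 0.36 to 1. List length and background moved with time point in these 6 libraries, so that the likeness of libraries and the counts of all-or-none regions are also given with the same number of peaks, the top 7668 by −log10 q, taken from each list. Other counts of calls below rest on all peaks.

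**Figure D1:**
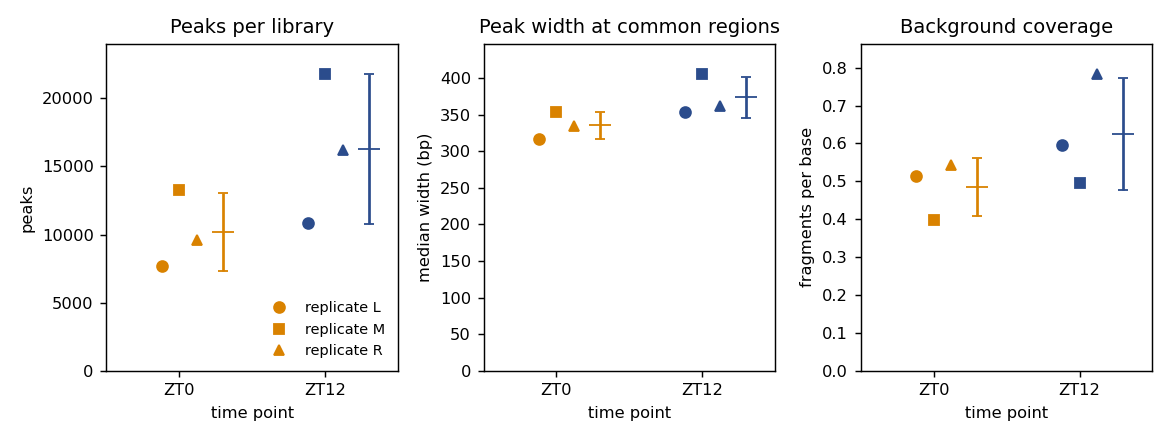
Number of peaks, median width in bp of the strongest peak at the 3652 regions called in all 6 libraries, and background coverage in fragments per base, for each of the 3 ZT0 and 3 ZT12 libraries (points, shaped by replicate) with the group mean and SD (bars). The ZT12 mean is the higher in all 3 panels, while the groups overlap in each.

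The merged list of ZT0 held 13675 regions over 5.40 Mb and that of ZT12 held 21022 regions over 8.44 Mb. Their regions were alike in width, with a median of 343 bp at ZT0 and 352 bp at ZT12. Of the 24193 joined regions, 10438 (43.1%) stood in both lists, 3205 (13.2%) in the ZT0 list only and 10550 (43.6%) in the ZT12 list only. Regions in both lists were broader (median 458 bp) than those in the ZT0 list only (282 bp) or the ZT12 list only (310 bp), in part by construction, since a region in both lists joins the intervals of both. Standing in 1 list often meant a peak in a single library: this was so for 60.2% of the ZT0-only regions (Wilson 95% interval 58.4 to 61.8) and for 61.5% of the ZT12-only regions (60.6 to 62.5). These intervals cover counting error only. The lists also left out regions that the libraries of that time point called. Of the ZT0-only regions, 127 had a peak in 3 of 3 ZT12 libraries, and of the ZT12-only regions, 125 had a peak in 3 of 3 ZT0 libraries. Calls in the single libraries were therefore used for all that follows.

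A peak was counted as a call when it overlapped a region by 1 bp or more. ZT0 replicates L, M and R called 29.5%, 49.1% and 36.2% of the regions, and ZT12 replicates L, M and R called 40.7%, 75.5% and 50.2%. The means were 38.3% ± 9.95 (SD, n = 3) and 55.5% ± 18.0 (SD, n = 3), and the difference lay within the spread between libraries (exact permutation p = 0.2). The commonest pattern was a peak in 1 ZT12 library and in no ZT0 library, with 6492 regions. The next was a peak in all 6 libraries, with 3652 regions (15.1%). On average, libraries of 1 time point shared more of their covered bases than libraries of different time points. The mean Jaccard index, the shared bases over the bases covered by either library, was 0.346 within a time point and 0.301 between them. The difference of 0.0451 had a one-sided exact permutation p of 0.1, the smallest possible for these 6 libraries. With equal numbers of peaks the indices were 0.421 and 0.378, with the same exact permutation p of 0.1. The pairs overlapped. With all peaks, ZT0 pairs lay between 0.346 and 0.385, ZT12 pairs between 0.318 and 0.320, and pairs across time points between 0.245 and 0.339. The ZT12 pairs thus lay within the range of pairs across time points. With equal numbers, ZT0 pairs lay between 0.402 and 0.442, ZT12 pairs between 0.404 and 0.439, and pairs across time points between 0.348 and 0.421.

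**Figure D2:**
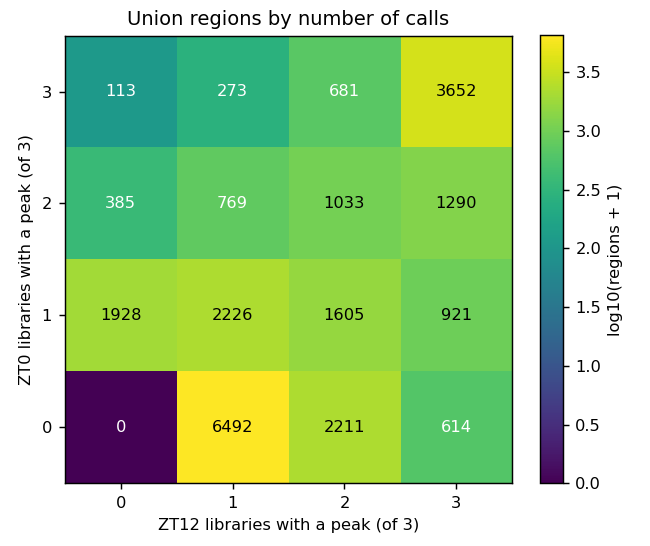
Number of union regions by how many of the 3 ZT12 libraries (horizontal axis) and of the 3 ZT0 libraries (vertical axis) had a peak there, with colour on a log10 scale. The upper left corner holds the 113 ZT0-side regions, the lower right corner the 614 ZT12-side regions, and the upper right corner the 3652 regions called in all 6 libraries.

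The regions of clearest contrast were those called in 3 of 3 libraries of one time point and 0 of 3 of the other. The ZT12 side held 614 of them (2.54% of the 24193 regions) and the ZT0 side 113 (0.467%). The order of the sides depended on list length. With equal numbers of peaks, 14914 regions had a call, of which 190 (1.27%) fell on the ZT12 side, with 223 (1.5%) on the other. No single region can reach an exact p under 0.1 in this design, so these counts are a description. They were also larger when a library was left out, as the rule then asks for fewer calls on one side or fewer missing calls on the other: leaving out ZT12 replicate L gave 1895 regions on the ZT12 side, ZT12 replicate R 1306 and ZT0 replicate M 1194, while on the ZT0 side leaving out ZT12 replicate M gave 324, ZT0 replicate L 319 and ZT0 replicate R 246.

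Most all-or-none regions were weak peaks. Peaks were placed by the percent of their library's list at or above them in −log10 q, so that a low percent is a strong peak. The median region of the ZT0 side lay at 57.5% and that of the ZT12 side at 53.7%, against 26.4% in the ZT0 libraries and 17.1% in the ZT12 libraries for regions called in all 6. The median number of fragments at the summit was 11 on the ZT0 side and 10 on the ZT12 side, near the 9 or 10 of whole lists. Only 4 ZT0-side and 28 ZT12-side regions lay on average in the upper 25% of the lists. Of the 113 ZT0-side regions, 12 (10.6%) were at least 1000 bp wide, as were 15 of the 614 on the ZT12 side (2.44%) and 326 of the 3652 regions called in all 6 libraries (8.93%). In the merged lists as a whole the share was 1.59% at ZT0 and 1.73% at ZT12. These shares were not tested against each other. Median widths were 525, 453 and 560 bp in the same order.

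The strongest ZT0-side regions, numbered here in genome order and placed on the Gmax_Wm82_a2_v1 assembly, were of 2 forms. R1496 (chr2:5355934-5357330) and R3633 (chr3:44396915-44398341) were broad. At R1496 the ZT0 peaks of replicates L, M and R were 722, 1385 and 987 bp wide with 24, 39 and 29 fragments at the summit. Elsewhere it was hardly called, with a peak in 1 of the 12 libraries of the other time points, at ZT20, of 221 bp and 10 fragments. At R3633 the ZT0 peaks were 924, 834 and 892 bp wide with 26, 32 and 24 fragments, and the other time points gave a peak in 2 libraries, both at ZT20. R18676 (chr16:1404185-1405251), with 19, 22 and 23 fragments at ZT0, was called in 2 ZT4 and 2 ZT20 libraries and in no library of ZT8, ZT12 or ZT16. These 3 regions thus had calls only at ZT0 and the samplings next to it.

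The other named ZT0-side regions were narrower. R15854 (chr13:32852634-32853137) had 16, 27 and 20 fragments in ZT0 replicates L, M and R. Its other calls fell in 2 ZT4 libraries, 1 ZT16 library and 3 ZT20 libraries, with none at ZT8. R9552 (chr8:20475481-20475898) had 12, 17 and 22 fragments at ZT0 and was called in 2 libraries each of ZT4, ZT16 and ZT20. R4594 (chr4:47154240-47154706) had 12, 14 and 21 fragments and was called at each time point but ZT12, in 9 of the 12 libraries of the remaining time points. Neither of the last 2 regions was confined to the samplings next to ZT0.

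The named ZT12-side regions were narrow and mostly open at several other times. R20686 (chr17:40082931-40083180) held the strongest peaks, with −log10 q of 51.5, 47.3 and 64.7 in ZT12 replicates L, M and R. It lay in the upper 4.36%, 3.33% and 3.14% of those lists and was called in 2 ZT4 libraries and 1 library each of ZT8 and ZT16. Its fragment number could not be recovered, since its p-values were beyond the range used. Where called at the other time points its peaks were 180 to 254 bp wide and again in the upper 2.89% to 4.36% of the lists, so that it was either a leading peak of a library or not listed. R3851 (chr4:2703654-2703856) had 17, 23 and 18 fragments at ZT12 and was otherwise called in 1 ZT8 and 1 ZT16 library only, the samplings next to ZT12.

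The remaining named ZT12-side regions were called at most of the other time points, while their lack of calls at ZT0 was set by the choice of regions. R5224 (chr5:9717550-9717948) had 19, 39 and 21 fragments in ZT12 replicates L, M and R and a peak in 12 of 12 libraries of the other time points, with 9 to 29 fragments. R11280 (chr9:48149751-48150198) had 16, 35 and 22 fragments and was called in 11 of the 12, and R19816 (chr17:6057462-6057711) had 15, 17 and 17 fragments and was called in 11 of the 12. R14321 (chr12:10465160-10465636), with 21, 34 and 28 fragments at ZT12, was called in all libraries of ZT4, ZT16 and ZT20 and in none of ZT8 or ZT0. Each of these regions was thus also called at ZT4 and ZT20, in contrast to R3851.

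The 12 libraries of ZT4, ZT8, ZT16 and ZT20 had no part in choosing the regions, so they gave a separate measure. In ZT4 replicates L, M and R, 51.3%, 38.1% and 42.5% of the ZT0-side regions were called, against 56.0%, 34.5% and 54.7% of the ZT12-side regions. Over all 24193 regions the same libraries called 49.4%, 35.2% and 48.1%, so that both sides lay near the general share at ZT4. In ZT8 replicates L, M and R the shares were 33.6%, 35.4% and 13.3% on the ZT0 side and 59.9%, 60.4% and 23.8% on the ZT12 side. Over all regions they called 50.4%, 51.5% and 26.5%. Each ZT8 library thus called the ZT12-side regions more often than the ZT0-side regions, and the ZT0-side share was below the general one in all 3, while the ZT12-side share was above it in L and M and below it in R. In ZT16 replicates L, M and R the shares were 39.8%, 49.6% and 22.1% on the ZT0 side and 63.4%, 69.5% and 40.6% on the ZT12 side. In ZT20 replicates L, M and R they were 58.4%, 41.6% and 36.3% on the ZT0 side and 48.2%, 28.8% and 26.7% on the ZT12 side. Over all regions the ZT16 libraries called 50.3%, 57.2% and 37.3%, and the ZT20 libraries 47.7%, 34.9% and 31.4%. Each ZT16 library followed the order of ZT8, with the general share between the sides. Each ZT20 library had the opposite order, with the ZT0-side share above the general one and the ZT12-side share below it in M and R and close to it in L.

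Expressed as the log2 ratio of the ZT0-side share to the ZT12-side share, which cancels much of the list length, the 6 libraries taken 4 h from ZT0 (ZT4 and ZT20) averaged 0.15 ± 0.34 (SD, n = 6). The 6 libraries taken 4 h from ZT12 (ZT8 and ZT16) averaged −0.75 ± 0.15 (SD, n = 6). The groups did not overlap: the former ran from −0.37 to 0.53 and the latter from −0.87 to −0.49. The difference of 0.90 had a two-sided exact permutation p of 0.00216, the smallest possible, and the same value after adjustment over the 2 tests made on these libraries. By time point the ratio was 0.42 ± 0.13 (SD, n = 3) at ZT20 and −0.12 ± 0.25 (SD, n = 3) at ZT4, while ZT16 had −0.68 ± 0.19 (SD, n = 3) and ZT8 had −0.82 ± 0.04 (SD, n = 3). By this ratio at the all-or-none regions, ZT20 was the time point most like ZT0, and ZT4 lay between it and the 2 samplings next to ZT12. With equal numbers of peaks the ratio was −0.31, −0.21 and −0.29 in ZT4 replicates L, M and R, so that all of them called the ZT12 side more often. Likeness of whole lists was not compared for these time points. The number of peaks of these libraries, 12966 on average near ZT0 and 14454 near ZT12, did not differ beyond their spread (exact permutation p = 0.511), nor did their background (0.498 and 0.486 fragments per base, exact permutation p = 0.747). The permutation treats the 12 libraries as separate, whereas they come from 4 time points. Leaving out each time point in turn, an alternative added after seeing the data, gave differences from 0.63 to 1.16. The exact permutation p was 0.0119 each time, the smallest possible with 3 libraries against 6. A side then holds a single time point, so this p does not measure the spread between sampling times. Choosing the regions without each ZT0 or ZT12 library in turn gave 0.50 to 0.84 (exact permutation p = 0.00216).

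**Figure D3:**
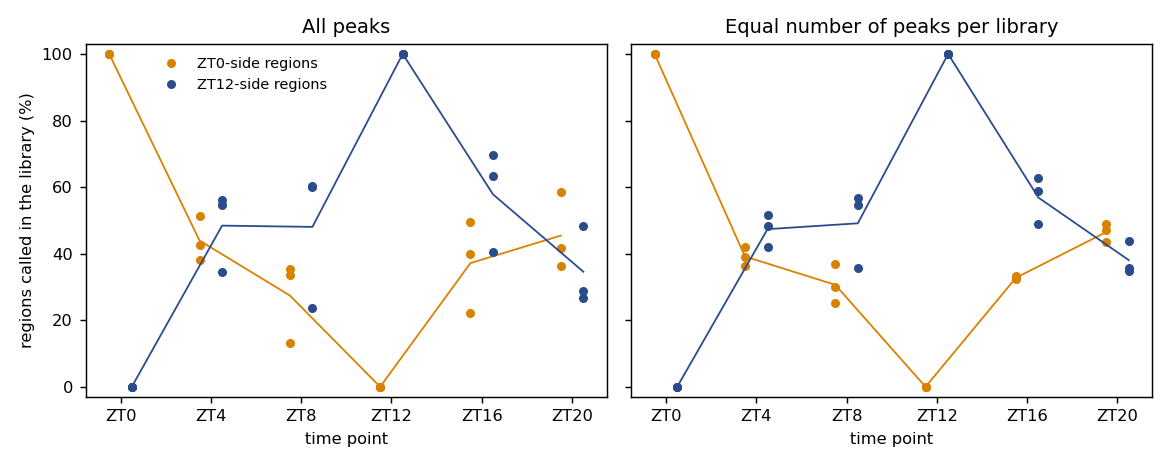
Percent of the ZT0-side (orange) and ZT12-side (blue) regions called in each of the 18 libraries by time point (points, lines through the means), for all peaks at left and for the 7668 top peaks of each library at right, where the sides are chosen anew and hold 223 and 190 regions. At right, a region without a call may still have a weaker peak in the full list. The values of 100% and 0% at ZT0 and ZT12 are fixed by the choice of regions. The blue points lie above the orange ones in every ZT8 and ZT16 library. They also do so in ZT4 replicates L and R at left. At right this holds in every ZT4 library and, narrowly, in ZT20 replicate M (43.7% against 43.5%).

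Single regions carried this pattern unevenly. On the ZT0 side, 54 of 113 regions (47.8%) had more calls near ZT0 than near ZT12, 16 (14.2%) had fewer and 43 had as many. On the ZT12 side, 337 of 614 (54.9%) had more calls near ZT12, 132 (21.5%) had fewer and 145 had as many. The same split over all 24193 regions is not given here. The mean share of all regions called was 42.8% at ZT8 and 48.3% at ZT16, against 44.3% at ZT4 and 38.0% at ZT20. These counts of regions therefore also carry the number of calls of each time point. A peak at no other time point was found for 19 ZT0-side regions (16.8%) and 16 ZT12-side regions (2.61%). Just 1 region, on the ZT0 side, was called in all 6 libraries near ZT0 and none near ZT12, and none of the ZT12 side had the mirror image. The ZT12-side regions were listed in the merged lists of ZT4, ZT8, ZT16 and ZT20 in 419, 451, 473 and 335 cases, fewest at ZT20, where the libraries also called the smallest share of all regions. The ZT0-side regions were listed there in 66, 49, 60 and 66 cases, fewest at ZT8. The share of all regions in each of these merged lists is not given here, so these counts are a description only.

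At the 3652 regions called in all 6 libraries the comparison turned to strength. Within each library these regions were ranked by −log10 q (rank 1 the strongest), ranks were turned into normal scores, which are the deviates of a standard normal distribution at those ranks, and limma was fitted to the scores of the 6 libraries. At a Benjamini-Hochberg adjusted p under 0.05, 1 region ranked higher at ZT0 (0.0274%) and 1 at ZT12 (0.0274%). At an unadjusted p under 0.05, 221 ranked higher at ZT0 (6.05%) and 215 at ZT12 (5.89%). Ranking within each library centres the scores, which favours such a balance by construction. Positions in the whole list, which keep the difference in list length, gave 31 higher at ZT0 and 545 at ZT12 at an unadjusted p under 0.05, with none past the adjusted threshold by limma and a median shift of 0.27 towards ZT12. The ranks of the groups did not overlap in 313 regions higher at ZT0 (8.57%) and 317 higher at ZT12 (8.68%). No region passed in any alternative, with smallest adjusted p from 0.0529 to 0.351 by limma. With equal numbers of peaks (2805 regions) and with 50% coverage (1745 regions) the 2 regions that had passed were not among those tested. The ranks of any 2 libraries were close: Spearman's rho across these regions lay between 0.744 and 0.790 within ZT0, between 0.789 and 0.811 within ZT12 and between 0.710 and 0.767 across time points, a description over regions of the same libraries.

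R5481 (chr5:32149343-32150703) was the region that ranked higher at ZT0. It had 34, 46 and 38 fragments at the summit in ZT0 replicates L, M and R and 7, 14 and 11 in ZT12 replicates L, M and R, without overlap. Its ranks were 658, 583 and 716 at ZT0 and 3515.5, 3262.5 and 3302 at ZT12. The score was lower at ZT12, with a difference of −2.37 (SE 0.18) and an adjusted p of 0.0468 by limma. With 1 library left out the difference stayed between −2.46 and −2.12, although the adjusted p no longer passed. The peak was present in all 18 libraries. ZT4 gave 43 and 39 fragments in the 2 libraries where they could be recovered, ZT8 gave 28, 45 and 22, ZT16 gave 14, 14 and 11, and ZT20 gave 18, 20 and 20. By fragments the region was thus about as strong at ZT4 as at ZT0, ZT8 reached into the same range, ZT12 and ZT16 were lowest, and ZT20 lay between. Across the day its list position ran from the upper 3.7% in ZT4 replicate R to 77.7% in ZT12 replicate L.

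R14218 (chr12:6719393-6719984) was the region that ranked higher at ZT12. It had 7, 7 and 8 fragments in ZT0 replicates L, M and R and 20, 28 and 23 in ZT12 replicates L, M and R, again without overlap. Its ranks were 3577.5, 3506.5 and 3547 at ZT0 and 1708, 2117.5 and 1701 at ZT12, and the score difference was 1.89 (SE 0.15) with an adjusted p of 0.0468 by limma. With 1 library left out it stayed between 1.79 and 1.98, again without passing the adjusted threshold. The fragments were 17, 19 and 16 at ZT4, 15 and 16 in the 2 ZT8 libraries that called it, 27, 22 and 12 at ZT16 and 11, 12 and 12 at ZT20. Among the libraries that called it, those of ZT0 were lowest, while ZT8 replicate R had no peak there. By fragments, the 3 ZT12 libraries and 2 of the ZT16 libraries were at or above all the others, whereas ZT16 replicate R was low. By list position ZT4 replicate M stood highest, in the upper 9.46%, against 19.3%, 13.4% and 13.5% in ZT12 replicates L, M and R. At ZT4, where R5481 was strong, R14218 was well above its ZT0 values too.

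The next 3 regions in each direction did not pass the test and are named after their values were seen. R2782 (chr3:3371867-3372603) ranked 1234.5, 1473.5 and 1467 at ZT0 and 3318, 3130 and 3355.5 at ZT12 (adjusted p = 0.0644 by limma). R22404 (chr19:30406348-30406893) and R18822 (chr16:4037366-4038199) followed at an adjusted p of 0.130 by limma. R18822 had 16, 24 and 21 fragments at ZT0 and 6, 10 and 9 at ZT12, and none of the 12 libraries of the other time points had a peak there. On the ZT12 side R16473 (chr13:44752140-44752488), R18330 (chr15:25232410-25232720) and R14888 (chr12:38799192-38799781) had an adjusted p of 0.191 by limma. R16473 had 8, 10 and 9 fragments at ZT0 and 17, 37 and 25 at ZT12. In all 6 of these regions the ranks at ZT0 and ZT12 did not overlap, which the choice by smallest p on the same ranks favours. The same held for 205 of 221 regions higher at ZT0 and 203 of 215 higher at ZT12, at an unadjusted p under 0.05.

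**Figure D4:**
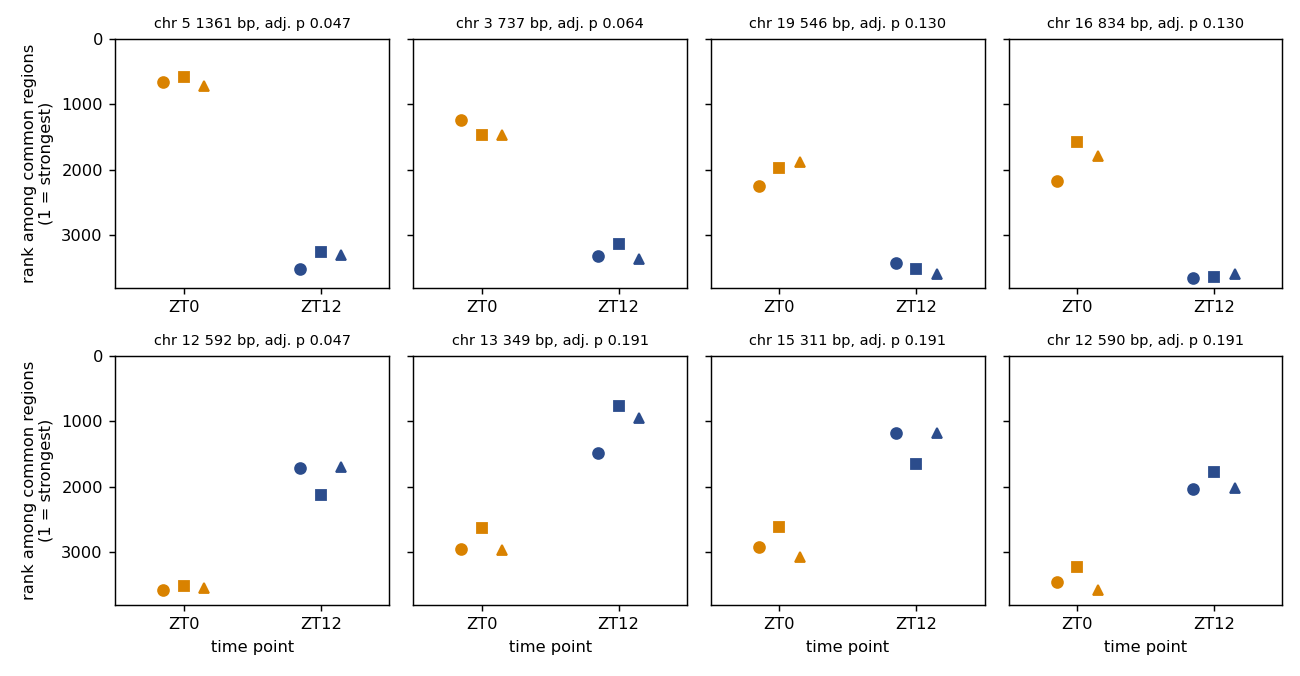
Rank among the 3652 common regions (vertical axis, rank 1 at the top) in ZT0 (orange) and ZT12 (blue) libraries, shaped by replicate (circle L, square M, triangle R), for the 4 regions with the smallest p ranking higher at ZT0 (upper row) and at ZT12 (lower row). Titles give the chromosome, the region's width in bp and the adjusted p by limma, which is under 0.05 only for the first region of each row, R5481 and R14218.

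The ranking regions were also followed into the other time points. Of the regions with an unadjusted p under 0.05, 109 of those higher at ZT0 and 124 of those higher at ZT12 were called in all 18 libraries. In each library the mean normal score of the latter was taken from that of the former. The difference was −0.07, 0.07 and −0.09 in ZT4 replicates L, M and R, and 0.17, −0.11 and 0.14 in ZT20 replicates L, M and R. It was −0.28, −0.19 and −0.17 in ZT8 replicates L, M and R, and −0.33, −0.31 and −0.38 in ZT16 replicates L, M and R. Every library near ZT12 was below every library near ZT0. The means were 0.02 ± 0.12 (SD, n = 6) near ZT0 and −0.28 ± 0.08 (SD, n = 6) near ZT12, and the difference of 0.29 had an exact permutation p of 0.00216, the smallest possible. This permutation too treats the 12 libraries as separate, although they come from 4 time points. With each time point left out in turn, chosen after seeing the data, the difference stayed between 0.23 and 0.36. The exact permutation p, again over libraries and with a single time point on a side, ran from 0.0119, the smallest possible, to 0.0238. Across the 2266 regions called in all 18 libraries, the ZT0 minus ZT12 score and the near-ZT0 minus near-ZT12 score had a Spearman's rho of 0.208, given as a description since these points share libraries.

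In whole lists the median width was 267, 252 and 261 bp in ZT0 replicates L, M and R and 277, 267 and 255 bp in ZT12 replicates L, M and R (exact permutation p = 0.5). The ZT12 minus ZT0 difference of 6.33 bp became 38.8 bp with equal numbers of top peaks and 19 bp among peaks at or above a −log10 q of 5, both at the smallest possible exact permutation p of 0.1. At the common regions the median was 317, 354 and 335 bp at ZT0 and 353, 406 and 362 bp at ZT12. The groups overlapped only at ZT0 replicate M and ZT12 replicate L, and the exact permutation p was 0.2. A fit per region was added after seeing the data. On log2 width, 2 regions were wider at ZT0 (0.0548%) and 0 at ZT12 at an adjusted p under 0.05 by limma, with 64 (1.75%) and 330 (9.04%) at an unadjusted p under 0.05. The median region was 0.11 log2 units wider at ZT12. With the median of each library set equal, 3 regions passed as wider at ZT0 (0.0821%) and 0 as wider at ZT12 by limma, and the unadjusted counts became 163 (4.46%) and 177 (4.85%).

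Both regions that passed were broad at ZT0 alone. At R14334 (chr12:10903712-10905187) the peaks were 1378, 1394 and 1427 bp wide in ZT0 replicates L, M and R and 469, 415 and 445 bp in ZT12 replicates L, M and R. The log2 difference was −1.66 (adjusted p = 0.00916 by limma). It also had more fragments at ZT0, 33, 40 and 35 against 14, 13 and 16, and the 6 of 12 libraries of other time points that called it had peaks of 200 to 473 bp. At R17428 (chr14:46522085-46523520) the peaks were 1379, 1272 and 1385 bp wide at ZT0 and 554, 578 and 539 bp at ZT12, a log2 difference of −1.27 (adjusted p = 0.0155 by limma). There the summit held similar fragment numbers, 24, 34 and 31 at ZT0 and 24, 35 and 30 at ZT12. All 12 libraries of the other time points called R17428 with peaks of 408 to 754 bp, each narrower than every ZT0 peak. With library medians set equal both passed again, at an adjusted p of 0.0215 and 0.0359 by limma.

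The summit of a peak, its point of highest coverage, lay at nearly the same base at both times in most common regions. The mean summits of ZT0 and ZT12 were a median of 22.5 bp apart over the 3652 regions called in all 6 libraries, while the summits of 3 libraries of 1 time point spanned a median of 70 bp at ZT0 and 63 bp at ZT12. In 479 regions (13.1%) the distance was 100 bp or more, and in 34 (0.931%) the summits were also without overlap between groups. The pair with the largest distance, named after the values were seen, was R22093 (chr19:1037819-1038795), 504 bp, and R23198 (chr19:50457034-50457772), 318 bp. At R22093 the summits spanned 55 bp within ZT0 and 6 bp within ZT12, and at R23198 they spanned 24 bp and 48 bp. Both regions were called in all 18 libraries.

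The position of peaks along the 20 chromosomes was alike at both times. The chromosome ends, taken as the outer 25% of the length on either side, held 73.4%, 75.1% and 74.4% of the peaks in ZT0 replicates L, M and R and 72.3%, 74.6% and 67.5% in ZT12 replicates L, M and R. The means of 74.3% ± 0.831 (SD, n = 3) and 71.5% ± 3.64 (SD, n = 3) did not differ beyond their spread (exact permutation p = 0.3), and ZT12 replicate R stood lowest. Among peaks at or above a −log10 q of 5 the sign of the difference turned. The regions followed the peaks: 75.2% of those in both lists, 74.7% of the ZT0-only (Wilson 95% interval 73.2 to 76.2) and 72.3% of the ZT12-only regions (71.5 to 73.2) lay in the chromosome ends. Of the all-or-none regions, 81 of 113 on the ZT0 side (71.7%) and 476 of 614 on the ZT12 side (77.5%) lay there, against 73.1% of the regions called in all 6 libraries. Both sides had members on all 20 chromosomes, from 1 to 10 per chromosome on the ZT0 side and from 19 to 48 on the ZT12 side.

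**Figure D5:**
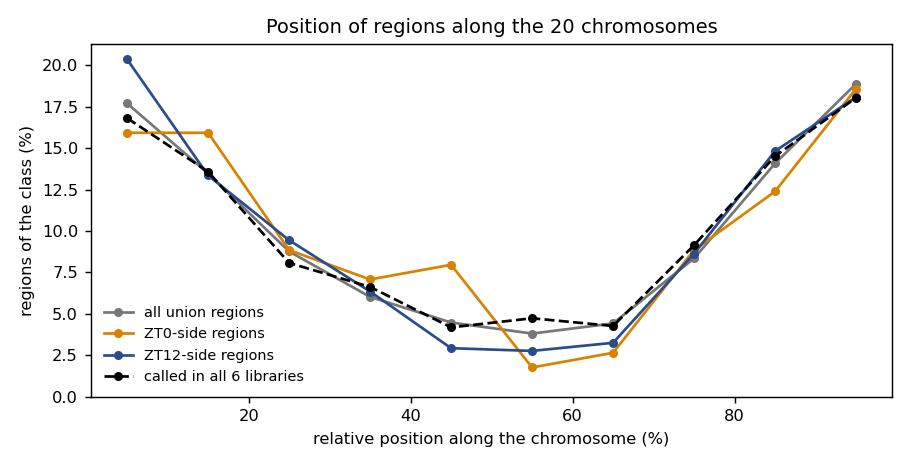
Percent of the regions of each class (vertical axis) by relative position along the chromosome in steps of 10% of its length (horizontal axis), for all union regions, ZT0-side, ZT12-side and regions called in all 6 libraries. Each class is densest towards both chromosome ends and sparsest near the middle, and the line of the 113 ZT0-side regions is the least smooth.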

How the data were processed

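ATAC-seq was measured in 18 libraries of a time course, of which the 3 ZT0 and 3 ZT12 libraries are compared here. The members and lists were chosen with earlier results of these data known. After adapter trimming, the authors mapped read pairs with Bowtie2 (FastQC and Bowtie2 are also named in the submitters' processing notes) to Gmax_Wm82_a2_v1 keeping up to 10 alignments per read pair, which lets repeats share reads, and called peaks with MACS2 on whole paired fragments, in which mode its shift is not applied. They called each replicate after downsampling, and also the merged reads of the replicates. They kept peaks found in both, and their methods then remove the regions of highest signal and those of low signal at all time points. Which of these steps the deposited lists had passed is not given in the sources used here. The deposited library lists hold positions, a display score, the fold over background (a ratio), −log10 p and −log10 q, as the authors' peak caller wrote them. The deposited merged lists hold positions only. Display scores were not used.

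Regions were the joined merged lists of ZT0 and ZT12. The strongest peak of a library stood for a region. Fragments at the summit were the whole number that met fold and −log10 p (tolerance 0.001, −log10 p under 50), found for at least 99.956% of the peaks of each library. The most frequent background of a library was taken as a guide to its depth relative to the others. Total reads are not used here, so this reading was not checked. Chromosome length was the farthest peak end. Tests were exact permutation tests and limma 3.58.1 (R 4.3.3) with Benjamini-Hochberg adjustment over all common regions, tested on simulated data. Python 3.11.15, numpy 2.4.6, pandas 2.3.3, scipy 1.17.1, statsmodels 0.14.6 and matplotlib 3.10.9 were used. Wilson intervals are at 95%.

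Named all-or-none regions were the 6 per side with the highest mean rank in the lists, among those called in 3 of 3 libraries also within equal numbers of top peaks. Ranked regions were up to 6 per direction past the threshold. Alternatives were equal numbers of peaks, the upper 50% of each list, −log10 q of at least 5, 50% coverage of a region, rank by fold, position in the whole list, difference of percents, a replicate block and each library left out. The comparisons of per-region width and of summits, the regions chosen without 1 library and the time points left out were added after seeing the data. Replicate letters were not used to pair the libraries in the main tests. No sequence or gene name is given, since no genome of this build was used here. Another 12 samples were not analysed here.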

Additional observations from a re-analysis of the deposited data

Results flagged for a closer look

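Regions with a peak in all 6 library lists and in neither merged list numbered 78, of the 3729 regions that all 6 libraries called (2.09%). They are outside the 24193 regions compared above and were noticed because the calls of the single libraries and the merged lists differ there. They were among the strongest peaks of the lists, with a median position in the upper 0.321%, and 60 of them lay in the upper 1% of all 6 lists. They were spread over 20 chromosomes. The study's methods exclude a small top share of accessible regions by signal, as well as regions of low signal. Whether that step removed these regions from the merged lists was not tested. Among the 6 libraries near ZT12, ZT8 replicate R had the fewest peaks, 8143, against 15942 and 16939 in ZT8 replicates L and M.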

How the results depend on the processing

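Peak number, median width and Jaccard differences kept their direction in all alternatives run. Their p could not pass 0.05 in any of them. The width difference was 38.8 bp with equal numbers of peaks and 19 bp at a −log10 q of 5 or more, against 6.33 bp. Leaving out each library in turn gave differences of 3339 to 8835 peaks, 1 to 12 bp, −4.40 to −0.834 percentage points in the chromosome ends and 0.0231 to 0.0728 in Jaccard index. The difference in the chromosome ends was 0.282 percentage points at a −log10 q of 5 or more (exact permutation p = 0.9). Equal numbers of peaks gave 190 ZT12-side and 223 ZT0-side regions, whereas the upper 50% of each list gave 412 and 45. With 1 library left out the counts ran from 737 to 1895 and from 132 to 324. The rank comparison gave 0 regions in either direction by limma with equal numbers of peaks (155 higher at ZT12 and 146 at ZT0 at an unadjusted p under 0.05), with rank by fold (194 and 190), with 50% coverage (93 and 83) and with 1 library left out (0 to 0 regions, smallest adjusted p from 0.0954 to 0.274). Position in the whole list also gave 0 by limma, with 545 and 31 unadjusted and a median shift of 0.27 towards ZT12. The measures on the other time points kept their sign and an exact permutation p under 0.05 in all alternatives, with 0.82 to 1.00 for calls and 0.26 to 0.32 for ranks when 1 library was left out, and 0.74 and 0.32 with equal numbers of peaks. These p treat libraries of 1 time point as separate. The causes were not tested.

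Same-letter libraries of ZT0 and ZT12 deviated together only weakly (correlations 0.0141, 0.0584 and 0.0176). Libraries of different letters had correlations from −0.0338 to 0.0141. Values this small do not decide whether the letters pair the libraries. With the replicate block the rank comparison gave 0 regions in either direction by limma (206 higher at ZT12 and 226 at ZT0 unadjusted, smallest adjusted p = 0.351), and the peak number difference of 6105 had an exact sign-flip p of 0.25. ZT0 replicate L correlated about as much with ZT12 replicate R as with ZT12 replicate L, while each other library correlated best with its own letter.

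With 3 libraries per time point no library measure can give a p under 0.1. Calls of weak peaks rest on few fragments, so that a missing peak is not evidence of closed chromatin.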

Other observations

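Rank and width come from the same peaks and are not independent measures. Of the 221 common regions that ranked higher at ZT0 at an unadjusted p under 0.05, 29 (13.1%) were also among the 64 wider at ZT0 (45.3% of these), which were 1.75% of all common regions. Of the 215 that ranked higher at ZT12, 45 (20.9%) were also among the 330 wider at ZT12 (13.6% of these), which were 9.04% of all. The median region width was 640 bp for those higher at ZT0, 578 bp for those higher at ZT12 and 560 bp for all common regions. Of these groups 71.9%, 76.7% and 73.1% lay in the chromosome ends, the outer 25% on either side.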
